A study of Rattus norvegicus with 48 samples.

Results

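Myl4 and the 60 genes whose RNA level followed it most closely were examined in left ventricular tissue of rats. Genes were ranked by Pearson's r with Myl4 (ENSRNOG00000050675), computed on log2(normalized count + 1) over 39 libraries. A normalized count is the number of reads assigned to a gene divided by the size factor of its library. Genes that correlated more closely with the leukocyte gene Ptprc (ENSRNOG00000000655) were left out, which removed 4 genes above the limit of the list. Myl4 and its 60 followers are 61 of 13687 genes with a mean normalized count of 10 or more, and of 32883 genes in the files. The list was therefore chosen on measured values, and the correlations within these 39 libraries are a description of the choice.

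Myl4 encodes the essential light chain of myosin that is typical of atrial muscle, and it is also made in the ventricle of the embryo. In the adult ventricle other light chains take its place, so its RNA is normally low there. Light chains wrap the neck of the myosin head and tune its stroke. In bulk tissue, fewer cells of a type and less RNA per cell cannot be told apart.

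The rats were Sprague Dawley animals, 8 weeks old when the injections began, that received saline or methamphetamine, a psychostimulant drug, at 5 mg/kg per day for 10 days. Hearts were taken on day 11, which is 24 hours after the last injection, or following 30 days without the drug, here called abstinence. Both sexes were studied, which gave 8 groups, and each heart gave 1 library. Groups held 6 libraries each, apart from saline-treated females at day 11 with 5, because replicate 3 of that group was not analysed here. The groups were female saline day 11, female methamphetamine day 11, male saline day 11, male methamphetamine day 11 and the same 4 after abstinence. Nothing but the drug, the sex and the time is given as differing between them, but each time point was also its own sequencing pool, so time and pool cannot be told apart. The same holds for drug and rat series in males at day 11, where saline and methamphetamine rats came from different series of numbers.

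Total counts ranged from 6661581 to 11314050 over 47 libraries, with a median of 9020989. The labelled sex was checked with 4 genes detected mainly in libraries labelled male and 2 detected mainly in libraries labelled female. Relative to their median in male-labelled libraries, the former reached 0 to 2.45% in 19 female-labelled libraries and 74.8 to 116% in 20 male-labelled ones. In the 8 libraries of replicate 5, 1 per group, this was turned around, with 87.4 to 118% in those labelled female and 7.45 to 11.9% in those labelled male. These 8 libraries were not used to choose the list, and results are given with them, as labelled, and without them.

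The name of the list could be checked only in part. Symbols were at hand for 328 of the genes in the files, from the study's tables of changed genes, and 3 of the 61 members had one, namely Myl4, Agpat3 and Zfp512b. Agpat3 is an acyltransferase that makes phosphatidic acid for membrane lipids, and Zfp512b is a zinc finger protein. All 3 stand in the study's list of genes changed in female hearts at day 11, so their direction there is not independent evidence. Of 20 genes listed as markers of atrial cardiomyocytes, 2 had an identifier, Myl4 itself and Pam. Pam, an enzyme that amidates peptides and is abundant in the membrane of atrial secretory granules, had an r of -0.029 with Myl4 and ranged only from 6902 to 10767 normalized counts. The gap junction gene Gja1, the only match among 20 genes listed as ventricular markers, had an r of 0.145. Over 13 lists with 160 marker genes of cardiac and other cell types, 5 genes were matched, so the atrial identity of the followers was not tested and they are called followers of Myl4.

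The 250 bases upstream of the start of 2 members, out of 33469 promoters in the RefSeq table of build GRCr8, are shown because the members move together and these are the promoters at hand. The build is not that of the files, Rnor_6.0. Capitals mark matches to 5 motifs of factors that act in heart muscle, searched on both strands.
Myl4, chr10:89975900-89976149, + strand: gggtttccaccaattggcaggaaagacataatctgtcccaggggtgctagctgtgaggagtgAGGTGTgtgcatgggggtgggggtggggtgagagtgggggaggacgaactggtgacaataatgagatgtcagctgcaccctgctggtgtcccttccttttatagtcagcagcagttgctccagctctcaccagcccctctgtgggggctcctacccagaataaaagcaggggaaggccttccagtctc
Agpat3, chr20:10383931-10384180, + strand: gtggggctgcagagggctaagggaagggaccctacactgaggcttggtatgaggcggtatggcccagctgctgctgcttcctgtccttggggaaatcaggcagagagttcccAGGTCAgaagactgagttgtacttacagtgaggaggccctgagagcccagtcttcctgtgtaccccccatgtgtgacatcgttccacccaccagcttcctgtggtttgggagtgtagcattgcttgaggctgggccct
The Myl4 promoter held 1 match to the T-box letters AGGTGT, beginning 188 bases before the start, which 11.6% of all promoters hold. The Agpat3 promoter held 1 match to the nuclear receptor letters AGGTCA, beginning 138 bases before the start, which 14.1% of all promoters hold. The letters AGATAA, bound by factors of the GATA family, were in neither window and in 10.3% of all promoters. Likewise absent were the letters TNAAGTG of NKX2-5, which 9.89% of all promoters hold, and the MEF2 motif, which 3.41% hold. No motif was shared by the 2 promoters, and a match is a description of the sequence only.

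Myl4 was low in most hearts and high in a few. Its median was 31.9 normalized counts in the 39 libraries used for the choice, and the lowest value was 6.81, in replicate 6 of methamphetamine-treated males after abstinence. It stood above 100 in 6 of 47 libraries, a limit set after the values were seen, and the next value below was 63.0. Of these hearts, 3 came from saline-treated females at day 11, with 810 in replicate 1, 332 in replicate 2 and 123 in replicate 4. Another 2 came from methamphetamine-treated females after abstinence, with 308 in replicate 3 and 218 in replicate 4. The sixth was replicate 5 of methamphetamine-treated males after abstinence, with 122, whose sex genes were those of a female. All 6 hearts thus carried female sex genes, and they belonged to both treatments and both time points. Their total counts, 7789378 to 10571471, lay within the range of the other libraries, and the values rest on 108 to 939 reads on Myl4. At the low end the values rest on few reads, with 7 reads in the lowest library.

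**Figure D1:**
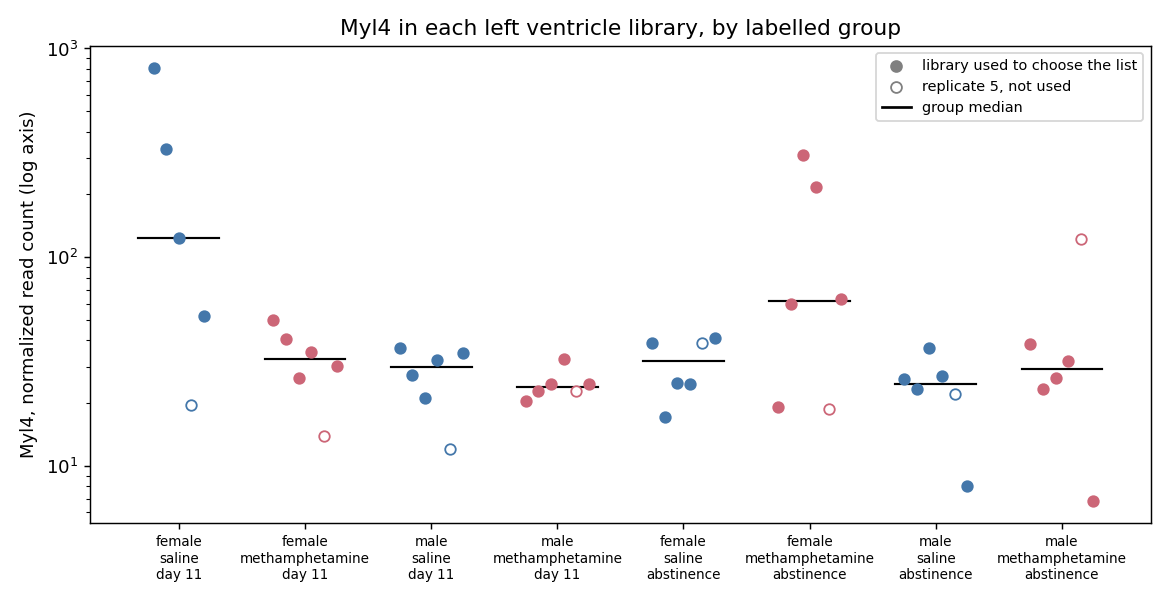
Normalized read count of Myl4 on a log axis in each of 47 left ventricle libraries, by labelled group, with saline in blue and methamphetamine in red. Filled points are the 39 libraries used to choose the list, open points are replicate 5, and the line is the group median. Points above 100 are in 3 groups, with 3 libraries of saline-treated females at day 11, 2 of methamphetamine-treated females after abstinence and 1 replicate 5 of methamphetamine-treated males after abstinence.

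The followers had r between 0.516 and 0.781 with Myl4, with 3 genes over 0.7 and 12 over 0.6. The median r of all 13687 genes was -0.0012. The edge of the list was gradual, since the last genes inside had an r of 0.517 and 0.516 and the first genes outside had 0.515 and 0.515. An r as far from 0 in the other direction was as common, with 79 genes at or below the negative of the limit against 64 at or above it. Among themselves the followers were less close, with a median r of 0.391 over 1770 pairs. Followers ranged in mean level from 11.3 to 3531 normalized counts, with a median of 126 against 177 for all genes. These levels are not corrected for gene length and are not compared between genes.

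The followers varied more than genes at large. The distance between the lowest and the highest of the 39 libraries was a median of 1.36 on the log2 scale for the followers and 0.98 for all genes. It was over 1 for 39 of 60 followers (48.4% of all genes), over 2 for 17 (10.6% of all genes) and over 3 for 6 (2.42% of all genes). The plot of all members by library shows the few genes of widest range as dark bands.

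**Figure D2:**
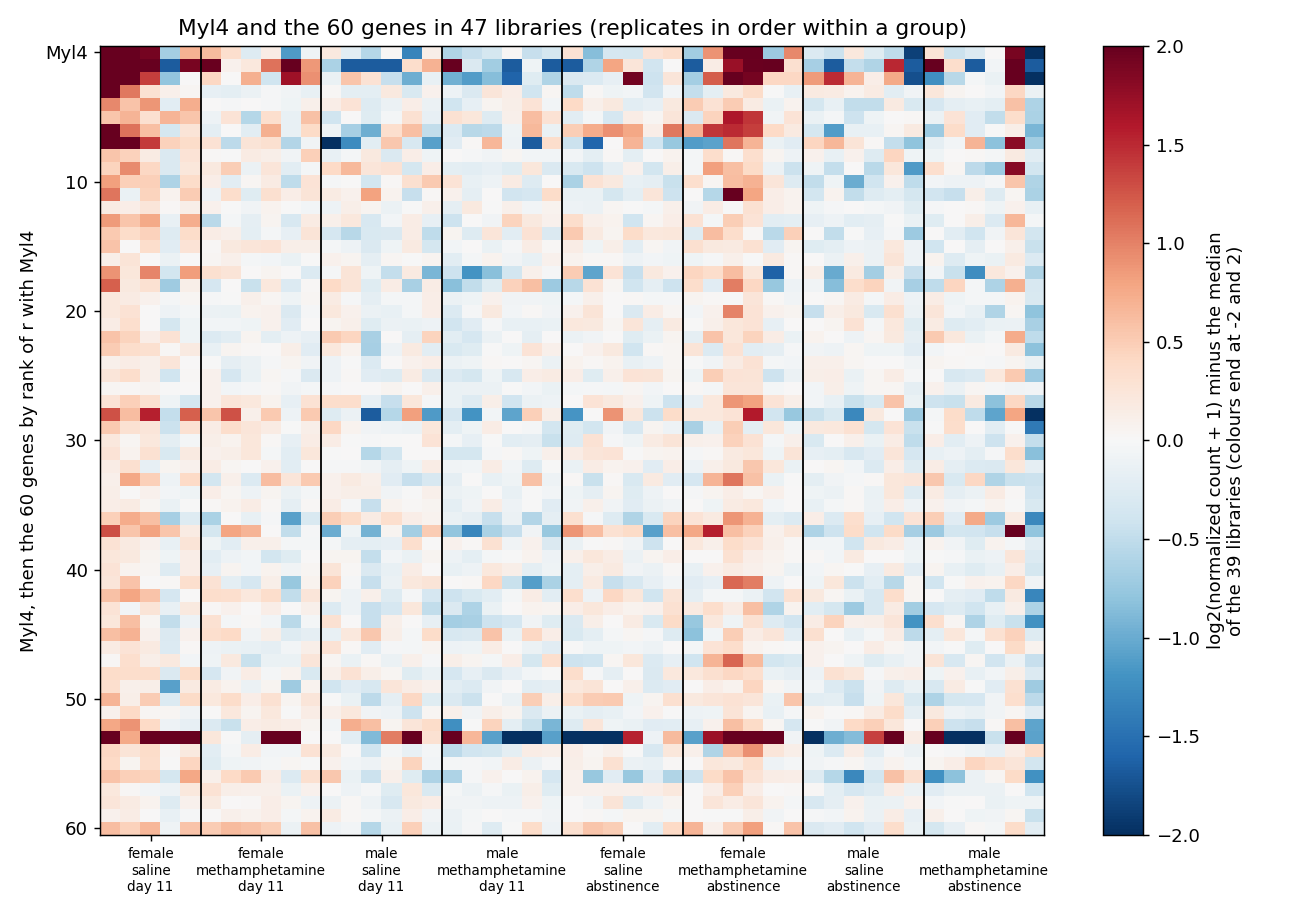
Each line is a gene, with Myl4 on top and the 60 followers below it by rank of r, and each column is a library, by labelled group. Colour gives log2(normalized count + 1) minus the median of the 39 libraries, with red above and blue below it, cut at -2 and 2. Red columns stand in saline-treated females at day 11 other than replicate 5, and in replicates 3 and 4 of methamphetamine-treated females after abstinence. Replicate 5 of methamphetamine-treated males after abstinence also has most followers above their median, 51 of 60.

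The hearts with high Myl4 were also those in which most followers peaked. Replicate 1 of saline-treated females at day 11 was the highest of 39 libraries for 16 of 60 followers (26.7%), against 2.04% of all genes. Replicate 3 of methamphetamine-treated females after abstinence was highest for 15 (25%), against 5.42% of all genes, and replicate 4 of that group for 10 (16.7%), against 7.63%. Replicate 2 of saline-treated females at day 11 was highest for 8 (13.3%), against 2.12%. With replicate 4 of that group, the 5 hearts held the peak of 51 of 60 followers (85%), and of 18.3% of all genes. By group, 28 followers peaked in methamphetamine-treated females after abstinence (46.7%, against 27.8% of all genes) and 27 in saline-treated females at day 11 (45%, against 7.09%), which leaves 5 followers for all other groups. These shares follow from how the list was chosen and are given as a description.

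The 6 hearts highest in Myl4 were also the 6 highest in the mean level of the followers, which the choice of the list favours for 5 of them, while the order differed among the other hearts. Taken as the mean over followers of log2(normalized count + 1) minus the mean of the gene, it peaked in replicate 1 of saline-treated females on day 11, with a value of 0.72 and 60 of 60 followers above their own median. It was 0.54 and 0.47 in replicates 3 and 4 of methamphetamine-treated females after abstinence, and 0.48 and 0.41 in replicates 2 and 4 of saline-treated females at day 11. Only 10 and 11 followers stood 2-fold above their median in the 2 leading hearts, so levels above the median were widespread but close to it for most genes. Replicate 6 of methamphetamine-treated males after abstinence was lowest, at -0.60, with 2 of 60 followers above their median.

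ENSRNOG00000012404 was the closest follower, with an r of 0.781, and it was near 0 in most hearts, with a median of 2.16 normalized counts. It reached 265, 97.2 and 41.3 in replicates 1, 2 and 4 of saline-treated females at day 11 and 40.7 in replicate 5 of methamphetamine-treated males after abstinence. In replicates 3 and 4 of methamphetamine-treated females after abstinence it was 9.48 and 11.5, below the 22.6 in replicate 1 of methamphetamine-treated males after abstinence, where Myl4 was 38.4. The gene was thus high in only some of the hearts with high Myl4.

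ENSRNOG00000014409 followed with an r of 0.777 and was high in all of them. It measured 1533, 678 and 425 in the same 3 saline-treated females, 907 and 617 in the 2 methamphetamine-treated females after abstinence, and 832 in the male-labelled replicate 5, against a median of 162. It was also high where Myl4 was not, at 622 in replicate 4 of saline-treated females after abstinence, where Myl4 was 24.7, and at 529 in replicate 5 of methamphetamine-treated females at day 11, where Myl4 was 13.9.

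Agpat3 (r = 0.693) was an abundant gene that moved in a narrow range. It stood at 1627, 1239 and 1548 in the 3 saline-treated females with high Myl4, at 1192 and 933 in the 2 methamphetamine-treated females after abstinence and at 1254 in the male-labelled replicate 5, against a median of 835. Replicate 6 of saline-treated females at day 11, with a Myl4 of 52.2, also had 1387, so in Agpat3 it stood with its group rather than with its Myl4 level. With group means removed, the r of Agpat3 fell to 0.176.

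ENSRNOG00000055010 (r = 0.680) showed the opposite split. It was 96.7 and 85.3 in the 2 methamphetamine-treated females after abstinence but 45.7, 50.1 and 38.9 in the 3 saline-treated females at day 11. Of these, replicate 2 was the next highest of 47 libraries, but it stood level with the 50.1 of replicate 5 of the same group, where Myl4 was 19.6. The plots of 4 followers against Myl4 show both kinds.

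**Figure D3:**
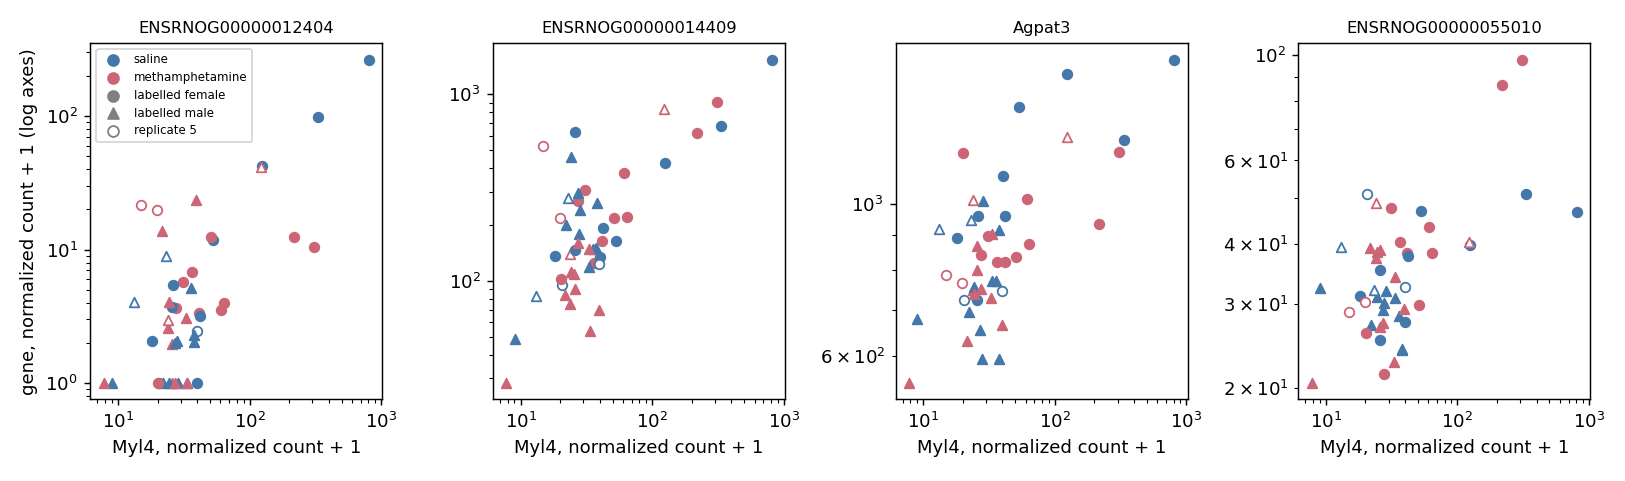
Each panel plots the normalized count + 1 of a follower against that of Myl4 in 47 libraries, both on log axes, with saline in blue, methamphetamine in red, circles for libraries labelled female, triangles for libraries labelled male and open symbols for replicate 5. ENSRNOG00000012404 is highest in the 2 saline-treated females with the most Myl4, and ENSRNOG00000055010 is highest in the 2 methamphetamine-treated females with high Myl4, at 96.7 and 85.3.

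Genes outside the list also separated these hearts. Ptprc, which marks leukocytes and is the only match among 12 leukocyte genes, was 664 and 412 in replicates 3 and 4 of methamphetamine-treated females after abstinence, the 2 highest of 47 libraries. It was 172, 167 and 192 in the 3 saline-treated females at day 11, ranks 43, 44 and 34, and 154 in the male-labelled replicate 5, the lowest of all. Eln, the gene of elastin in vessel walls and the only match among 10 genes of smooth muscle and large vessels, ran the other way. It was 1625, 1596 and 1655 in the 3 saline-treated females and 2301 in the male-labelled replicate 5, the 4 highest values, but 615 and 471 in the 2 methamphetamine-treated females. Both genes had a symbol because the study lists them as changed. Ptprc is listed as higher with methamphetamine in females after abstinence, and Eln as lower in females at day 11. Their differences between these hearts are therefore not independent evidence of a cell type. The part of either gene's cells in the Myl4 signal was not tested.

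Few followers tracked Myl4 in every subset of hearts. Without the heart highest in Myl4, the median r of the followers was 0.532, and with the group means removed it was 0.430, with 17 of 60 over 0.5. In 19 hearts labelled female it was 0.569, with 41 over 0.5, and in 20 hearts labelled male, where Myl4 never passed 38.4, it was 0.386, with 19 over 0.5 and 3 below 0. An r over 0.5 in both sexes was found for 11 followers, in females alone for 30, in males alone for 8 and in neither for 11. By time, 27 followers passed 0.5 at both times, 13 at day 11 alone and 20 after abstinence alone. Every one of these subsets was part of the choice, so the values describe it and the differences between subsets were not tested.

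The 8 libraries of replicate 5 were outside the choice. In them the median r of the followers with Myl4 was 0.315, against -0.0021 for all genes, and 14 of 60 (23.3%) passed 0.5, against 8.61% of all genes. That rested on 1 heart. Without replicate 5 of methamphetamine-treated males after abstinence, the median r over the other 7 was -0.062, 2 of 60 (3.33%) passed 0.5 against 11.7% of all genes, and 32 were below 0. With Spearman's rho over all 8, the median was 0.167. In that 1 heart, however, 51 of 60 followers stood above their median of the 39 libraries, and its mean level of the followers, 0.46, was the fifth of 47, as its Myl4 was the sixth. Most followers thus stood above their median in the only held-out heart with high Myl4, which is a description of 1 heart. It carried female sex genes, and the rest of its labelled group held Myl4 at 6.81 to 38.4. In replicate 5 of saline-treated males after abstinence, 46 of 60 followers also stood above their median, with a Myl4 of only 22.1. Its mean level of the followers, 0.15, had rank 10 of 47. The other held-out hearts had 15 to 35 followers above their median. The share of all genes above their median in these hearts was not computed, so nothing is read from these counts.

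Of the 4 comparisons of treatments, hearts from females at day 11 showed the largest Myl4 difference. Methamphetamine was compared with saline by edgeR's quasi-likelihood test over all genes that passed its filter on low counts, with calls made where the p, adjusted by the method of Benjamini and Hochberg, was under 0.1. Myl4 in saline-treated females was 810, 332, 123, 52.2 and 19.6, the last being replicate 5. In methamphetamine-treated females it ranged from 13.9 to 49.9, with a median of 32.7. The groups overlapped through replicate 5 alone, as the other 4 saline hearts stood above all 6 methamphetamine hearts. The means were 267 ± 327 (SD, n = 5) with saline and 32.7 ± 12.3 (SD, n = 6) with methamphetamine, so the saline spread was larger than its mean. Myl4 fell by 3.04 on the log2 scale, 8.22-fold (adjusted p = 0.0291 from edgeR), with a standard error of 0.69 on the log2 scale. Here and below, a gene that fell was lower with methamphetamine than with saline in the same comparison. The other saline groups had Myl4 medians of 29.9 in males at day 11, 31.9 in females after abstinence and 24.7 in males after abstinence. Among the saline groups, it was thus the females at day 11 that stood apart. A two-sided exact permutation test of mean log2 CPM gave p = 0.0455, with a smallest possible p of 0.00216. Without replicate 1 of the saline group the log2 fold change was -2.01 (adjusted p = 0.0950 from edgeR), and with limma on log2(signal + 1) Myl4 was not called, at -2.04 (adjusted p = 0.165 from limma). Without replicate 5 in either group it was -3.18 (adjusted p = 0.00419 from edgeR).

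Of 61 members, 10 were called in females at day 11, all of them lower with methamphetamine. This is 16.4% of the members, against 4.18% of all 13890 genes tested and 2.38% called lower. DESeq2 also called 10 members, all lower, beside 4.58% of all genes and 2.49% lower, and limma called 5, all lower, with 3.91% of all genes and 2.16% lower for a pseudocount of 1 and 3.93% and 2.17% for 0.1. Without replicate 5, edgeR called 17 members, all lower, beside 9.43% of all genes and 5.16% lower. The fold changes of 57 of 61 members were below 0 (93.4%, against 50.2% of all genes), with a median of -0.18 on the log2 scale for the members and -0.00043 for all genes. The followers were chosen to rise where Myl4 rises, and Myl4 was high in saline females. Both their common direction and the share of them called therefore follow at least in part from the choice, and neither is independent evidence.

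The members that were called differed in size and in how the groups lay. ENSRNOG00000012404 was 265, 97.2, 41.3, 10.8 and 0 in saline-treated females, the last being replicate 5, and 2.34 to 20.4 with a median of 5.25 in methamphetamine-treated females. The groups overlapped, and it fell by 3.45 on the log2 scale, 10.9-fold (standard error 0.87, adjusted p = 0.0486 from edgeR). Its mean was 13.3 over 47 libraries but 82.8 in saline-treated females at day 11. The next highest group mean was 11.4, in methamphetamine-treated males after abstinence. All remaining group means were at or below 7.91, and the limit on mean level for the list was 10. Without the saline-treated females at day 11 its mean would thus have been under the limit. The gene entered the list only through the group in which it was high, so its fall is not independent evidence. It is still counted among the members called. In the other comparisons of treatments it did not pass the filter on low counts and was not tested. ENSRNOG00000013552 was 127, 51.1, 32.4, 16.3 and 15.3 with saline, and every one of these lay above all 6 methamphetamine hearts, which ranged from 7.43 to 14.8. It fell by 2.08, 4.22-fold (standard error 0.49, adjusted p = 0.0352 from edgeR).

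ENSRNOG00000045636 also showed no overlap, at 711, 372, 220, 192 and 184 with saline and 155 to 175 with methamphetamine. It fell by 1.04, 2.06-fold (adjusted p = 0.0697 from edgeR). Like ENSRNOG00000013552, it was chosen to rise where Myl4 rises. The share of all genes without overlap between these groups was not computed, so nothing is read from the lack of overlap. Agpat3 was 1627, 1548, 1387, 1239 and 724 with saline, the last being replicate 5, and 786 to 896 with methamphetamine. It fell by 0.65, 1.57-fold (standard error 0.14, adjusted p = 0.0253 from edgeR). Zfp512b fell by 0.27, 1.21-fold, from 280 to 346 with saline to 229 to 297 with methamphetamine (adjusted p = 0.0904 from edgeR). The other 4 members called fell by 0.32 to 0.72 on the log2 scale (adjusted p = 0.0243 to 0.0729 from edgeR). ENSRNOG00000014409, the second follower, had a log2 fold change of -1.13 (standard error 0.53) that was not called (adjusted p = 0.368 from edgeR).

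Eln moved with this comparison too, and the study lists it among the genes lowered in female hearts at day 11. It was 1625, 1596, 1655, 1449 and 921 in saline-treated females and 318 to 421 in methamphetamine-treated females other than replicate 5, which had 907. In males at day 11 other than replicate 5, Eln was 1098 to 1426 with saline and 400 to 744 with methamphetamine, where Myl4 was at most 36.7. Among these hearts Eln was thus higher with saline in both sexes, while Myl4 passed 100 in females only. Replicate 5 of saline-treated males had 388, below every methamphetamine-treated male at day 11. In males at day 11, drug and rat series cannot be told apart. Whether cells rich in Eln take part in the fall of the Myl4 followers was not tested.

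The members made up 1.72% of the 581 genes called in females at day 11. With the log2 CPM of Myl4 added as a covariate to the fit of every other gene, which was chosen after the values were seen, edgeR called 367 genes (2.64%) instead of 581, and 271 of the 580 called genes other than Myl4 were called in both fits. No follower was called (0 of 60), and 6 followers and 1893 of 13889 genes had an unadjusted p under 0.05. Because the followers were chosen for their correlation with Myl4 in these hearts, the covariate takes up their differences by construction, and nothing is read from their count. Myl4 itself differed between the groups, so the covariate also takes up part of the treatment difference, and the 2 cannot be told apart in this comparison.

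In hearts from males at day 11, Myl4 ranged from 12.1 to 36.7 with saline (median 29.9) and from 20.6 to 32.5 with methamphetamine (median 23.8). The groups overlapped almost fully, and the log2 fold change was -0.16 with a standard error of 0.22 (adjusted p = 0.738 from edgeR, exact permutation p = 0.779). Of 59 members tested, 0 were called by edgeR, beside 0 of 13753 genes (0%), and 8 members and 2020 genes had an unadjusted p under 0.05. DESeq2 called 163 genes (1.11%), of which 0 were members. Without replicate 5, edgeR called 908 genes (6.54%, with 3.17% lower) and 2 of 59 members, both lower.

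The largest member changes were small beside those in females. They ran from -0.79 for ENSRNOG00000014409, at an adjusted p of 0.274 from edgeR, to 0.56 for ENSRNOG00000013552. The difference of the Myl4 effect between the sexes at day 11 was -2.88 on the log2 scale, female minus male (standard error 0.90), and did not pass the correction (adjusted p = 0.432 from edgeR), nor did any of the 61 members, beside 17 of 14278 genes (0.119%). At an unadjusted p under 0.05 for this difference there were 9 members and 1038 genes, and DESeq2 called 1, beside 0.294% of all genes. Without replicate 5 the difference was -2.90 (adjusted p = 0.168 from edgeR), and 4 members were called, beside 0.795% of all genes. For Myl4, a difference between the sexes is therefore not shown.

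After abstinence the estimated Myl4 difference in females pointed the other way, but it was not called. Myl4 ranged from 17.2 to 41.1 in saline-treated females, with a median of 31.9. In methamphetamine-treated females it was 308, 218, 63.0, 60.02, 19.3 and 18.8, so 4 of 6 hearts lay above the highest saline heart and 2 within the saline range. Means were 31.0 ± 9.94 and 114 ± 120 (SD, n = 6 each). The log2 fold change was 1.92, 3.77-fold higher (standard error 0.62), with an unadjusted p of 0.00738 in the fit and an adjusted p of 0.997 from edgeR, so it was not called. The exact permutation p was 0.143. Without replicate 3 of the methamphetamine group it was 1.32.

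None of 58 members tested was called by edgeR in females after abstinence, beside 0 of 13545 genes (0%). At an unadjusted p under 0.05 there were 9 members and 523 genes, and DESeq2 called 26 genes (0.169%), none a member. Without replicate 5, 0 members and 0 genes were called, with a Myl4 log2 fold change of 2.20. Fold changes of 50 of 58 members were above 0, with a median of 0.15 against 0.0011 for all genes. Those below 0 were 13.8% of the members, against 49.6% of all genes. The followers were chosen on the same hearts, so this common direction follows at least in part from the choice. The widest fold change after Myl4 was 0.87 for ENSRNOG00000014409 (adjusted p = 0.997 from edgeR). For ENSRNOG00000055010 it was 0.80, with saline hearts at 24.1 to 36.8 and methamphetamine hearts at 96.7, 85.3, 42.5, 37.4, 29.3 and 25.0. Ptprc was 176 to 215 in the saline hearts of this comparison and 664, 412, 307, 295, 220 and 186 in the methamphetamine hearts, so it moved with the same 2 hearts, and its part was not tested.

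Between the time points the treatment effect on Myl4 in females differed by -4.95 on the log2 scale, day 11 minus abstinence with a standard error of 1.02 (adjusted p = 0.0851 from edgeR). It was the only 1 of 61 members called for this difference, beside 33 of 14144 genes (0.233%), and the call was lost in 14 of 23 fits that left out 1 library. DESeq2 called 7 members for it, beside 1.17% of all genes. Without replicate 5 the difference was -5.38 (adjusted p = 0.0110 from edgeR), and 4 members were called, beside 1.23% of all genes. Of the members tested at both times, 47 of 58 were lower with methamphetamine at day 11 and higher after abstinence. Of the rest, 8 were lower at both, 3 higher at both, and 0 moved the other way. The followers were chosen on the same hearts, which fixes part of this pattern. The share of all genes with each pattern was not computed, so nothing is read from these counts.

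**Figure D4:**
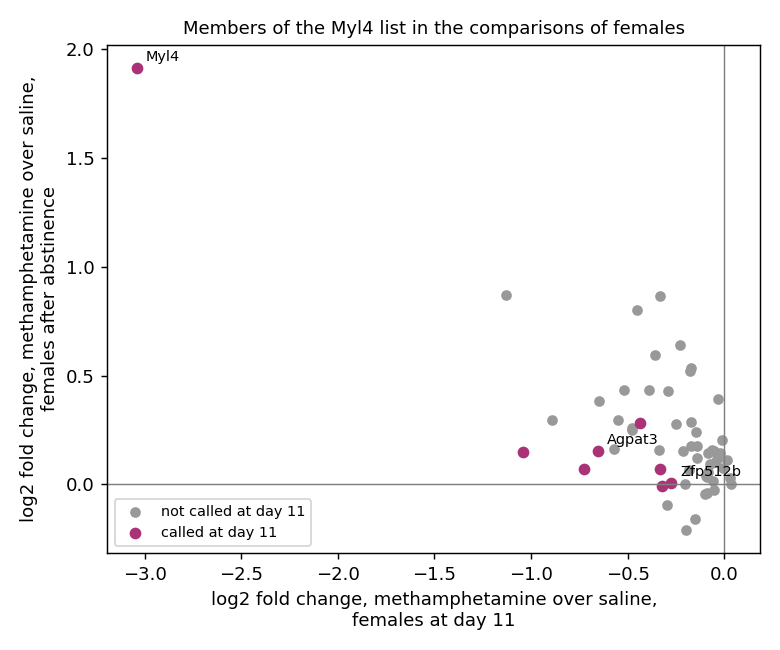
Log2 fold change of methamphetamine over saline in females at day 11 (horizontal) against the same after abstinence (vertical), for the 58 members tested at both times, from edgeR. Purple points were called at day 11. Myl4 lies apart at -3.04 and 1.92, most followers lie close to 0 on both axes, and 3 members, among them ENSRNOG00000012404 and ENSRNOG00000013552, are not shown because they did not pass the filter after abstinence.

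In males after abstinence, Myl4 ranged from 8.05 to 37.0 with saline (median 24.7). With methamphetamine it ranged from 6.81 to 122 (median 29.1). The upper end was replicate 5, and the other 5 hearts ended at 38.4. The log2 fold change was 0.80 with a standard error of 0.49 (adjusted p = 0.999 from edgeR, exact permutation p = 0.455), and without that replicate 5 it was 0.10. Of 59 members, 0 were called, beside 0 of 13606 genes (0%), with 1 member and 652 genes at an unadjusted p under 0.05, and DESeq2 called 23 genes (0.137%) and 0 members. Without replicate 5 in both groups, edgeR called 14 genes (0.103%) and 0 members. The median member fold change was -0.011 with all libraries and -0.078 without the replicate 5 with high Myl4, so the Myl4 difference rested on 1 heart.

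The list itself depended on few hearts. When it was chosen again with each library left out in turn, 32 of the 60 followers were found again without replicate 1 of saline-treated females at day 11, and 36 without replicate 3 of methamphetamine-treated females after abstinence. Leaving out the other hearts with high Myl4 gave 41, 44 and 51. The heart lowest in Myl4, replicate 6 of methamphetamine-treated males after abstinence, also gave 44 when left out. Most other libraries gave over 50, up to 59. Rank correlation found 18 of the followers again and removing the group means found 12.

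**Figure D5:**
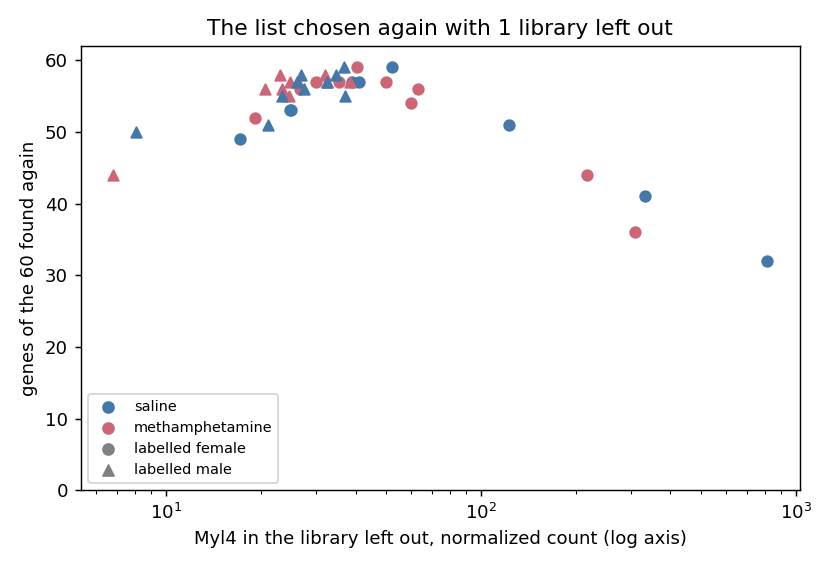
Number of the 60 followers found again when 1 library was left out of the choice (vertical, from 0) against the Myl4 level of that library (horizontal, normalized count on a log axis), for 39 libraries, with saline in blue, methamphetamine in red, circles for labelled female and triangles for labelled male. The lowest numbers, 32 and 36, belong to hearts with a Myl4 of 810 and 308. The heart with the lowest Myl4, 6.81, gave 44.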

How the data were processed

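RNA of left ventricles was sequenced by the authors. Per the labels' processing notes, reads were trimmed with Trimmomatic 0.38 and aligned to Rnor_6.0 with HISAT2 2.1.0, and DESeq2 1.20.0 was used. The authors deposited a count of reads per Ensembl gene and library, and a normalized signal, whose ratio to the counts was checked to be constant within each library. The treatment of reads with several alignments and of strand is not given in the sources used here.

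The members and the lists of genes were chosen with earlier results of these data known. The list was chosen on the signal, as log2(signal + 1). Tests used the counts of all 47 libraries as labelled, with edgeR 4.0.16 (R 4.3.3, TMM factors, filterByExpr, quasi-likelihood test, adjusted p under 0.1 over all genes tested), each comparison on its own libraries, and were tried on simulated data. CPM was computed with a prior count of 2. Alternatives were DESeq2 1.42.0, limma 3.58.1 on the signal, RLE factors, no filter, all groups in a single fit, the replicate number as a block, replicate 5 left out, and each library left out. Genes were named if they were members with a symbol, markers, the closest followers or the called members with the largest change. ENSRNOG00000055010 was chosen after its values were seen. Replicates are separate rats.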

Additional observations from a re-analysis of the deposited data

Results flagged for a closer look

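Within groups, the highest or lowest library stood apart from the others by Dixon's test in 8 of 64 sets of a gene and a group. The test used untransformed counts of genes chosen to move together, so the sets are not independent. Their number is a description and is not set against a rate by chance. Of these, 4 were replicate 5 of methamphetamine-treated males after abstinence, the library labelled male with female sex genes. It had 122 normalized counts of Myl4 (next highest in its group 38.4), 832 of ENSRNOG00000014409 (next 158), 42.9 of ENSRNOG00000013552 (next 19.1) and 1254 of Agpat3 (next 751). Another replicate 5, that of saline-treated males after abstinence, had 8.03 of ENSRNOG00000012404 (next 1.28). Replicate 1 of methamphetamine-treated males at day 11 had 12.8 of ENSRNOG00000012404 (next 1.99). Replicate 4 of the same group had 32.5 of Myl4 (next 24.8), a value near the median of all hearts. Replicate 4 of saline-treated females after abstinence had 622 of ENSRNOG00000014409 (next 192).

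The effect of methamphetamine on Myl4 in females differed between day 11 and abstinence by -4.95 on the log2 scale, by the test of the difference itself (adjusted p = 0.085 from edgeR). The call was lost in 14 of 23 fits that left out 1 library, and the time points were also different sequencing pools.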

How the results depend on the processing

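Of 10 members called in females at day 11, limma on the signal plus 1 called 5 and on the signal plus 0.1 also 5, and leaving out replicate 5 gave 17. Leaving out 1 library gave 4 to 15, with 4 without saline replicate 1 (beside 344 of 13974 genes) or methamphetamine replicate 4 (348 of 13808) and 15 without saline replicate 5 (811 of 14019). In males at day 11, 2 members were called without replicate 5, and 0 to 4 with 1 library left out, 4 without saline replicate 5, where 1590 of 13838 genes were called. After abstinence every alternative called 0 members in either sex. The Myl4 log2 fold change in females at day 11 lost its call with limma, at -2.04 with a pseudocount of 1 and -2.07 with 0.1 (adjusted p = 0.165 and 0.167 from limma), and ran from -3.33 to -2.01 with 1 library left out, each under the threshold. It ran from -0.31 to -0.07 in males at day 11, 1.32 to 2.14 in females after abstinence and 0.10 to 1.04 in males after abstinence. The difference between the sexes ran from -3.17 to -1.85 and that between the times from -5.24 to -3.92, with adjusted p from 0.023 to 0.175 from edgeR. The list chosen again held 18 of 60 followers with Spearman's rho, 39 with all 47 libraries, 12 with group means removed and 32 to 59 with 1 library left out. With Myl4 as a covariate, chosen after seeing the data, 367 genes were called in females at day 11. No alternative reversed a called direction.

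With the replicate number as a block (replicate block), 7 members were called in females at day 11, the Myl4 fold change was -2.54 (adjusted p = 0.011 from edgeR) and 454 genes were called. Same-numbered libraries correlated between -0.479 and 0.260 in their deviations from the group means, so the numbers do not pair the samples, although every replicate 5 correlated best with the other replicate 5. Depth limits the lowest values most, as 7 reads lie behind the lowest Myl4 value.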

Other observations

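Replicate 5 of methamphetamine-treated females at day 11 had 529 normalized counts of ENSRNOG00000014409 and 20.4 of ENSRNOG00000012404, the most in its group for both, with the lowest Myl4 of that group, 13.9. Replicate 2 of methamphetamine-treated females after abstinence held the peak of 10.7% of all genes over the 39 libraries, but of 3 of the 60 followers (5%), with a Myl4 of 60.02.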
